A study of Mus musculus with 3 samples.

Results

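Apln-positive, Stab1-low endothelial cells (ECs) of fetal bone marrow are described here in a targeted single-cell RNA library of C57/B6 wild-type embryos at E18.5. They were chosen by their own measured values in the E18.5 EC library. A cell needed at least 20 molecules in all, at least 5 molecules of Pecam1 plus Kdr that made up at least 5% of its molecules, no molecule of Ptprc or Gja4, under 3 molecules of Vwf, under 3 of Stab1, and at least 1 of Apln. These limits took 679 of the 4043 cells of that library (16.8%) and of 24875 cells in the series. A further 290 cells met every limit but had no Apln molecule, and they were the main comparison (Apln-zero cells). The choice therefore used Apln, Pecam1, Kdr, Ptprc, Gja4, Vwf and Stab1, and the levels of these 7 targets are descriptions only.

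The study compared niche cells of fetal and adult marrow and asked which ECs express Wnt ligands. The E18.5 EC library came from pooled embryos sorted for ECs, by CD31 with endomucin according to the series' description and by CD31 alone according to the methods. Pooled marrow cells of C57/B6 wild-type mice, depleted of mature blood cells with lineage antibodies, made up the Adult BM cells and the E18.5 BM cells. The labels give the adult stage without an age, and each group was 1 library without replicates.

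Apelin, the product of Apln, is a secreted peptide that acts on the receptor Aplnr and is known from sprouting and capillary endothelium. Stab1 encodes a scavenger receptor of sinusoidal endothelium, the wide and leaky vessels that fill the marrow, while Gja4 (connexin 37), Hey1 and Sema3g are known from arterial ECs. Marrow ECs also make factors for blood progenitors, among them stem cell factor, encoded by Kitl.

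Levels below are molecules of a target, summed over the cells of a group, per 10000 molecules of all panel targets in those cells. Intervals in parentheses are 95% intervals of counting error (exact Poisson for levels, exact conditional binomial for ratios, exact binomial for shares of cells). They do not cover the spread between embryos or between cells, and molecules of the same cell are not independent, so they are too narrow. With 1 library no difference could be tested, and a fixed rule of size was used instead: a target was called where its ratio was at least 1.5-fold in either direction with at least 20 molecules over both groups.

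Apln (GRCm38 chromosome X, 48025146 to 48034853, minus strand, 3 exons in transcript ENSMUST00000039026.7) chose the cells, so its values there are a description. The 679 cells held 3775 Apln molecules, or 724 per 10000 (701 to 747). The count was 1 in 170 cells, 2 in 119, 3 to 5 in 179 and 6 or more in 211, with a median of 3 and a highest value of 79. Among Ptprc-high cells of the same library (at least 3 molecules of Ptprc, no Kdr, 845 cells at a median depth of 119 molecules), which should lack endothelial genes, Apln stood at 3.19 per 10000. After each cell was thinned to 50 molecules, 1.41% of the Ptprc-high cells had an Apln molecule (0.705 to 2.51). How much of the Apln in the 170 cells with 1 molecule was free RNA was not tested.

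Detection of Apln moved with depth. The median depth was 66 molecules in Apln-positive cells and 50 in Apln-zero cells. Of the cells within the other limits, 57.5% of 226 had Apln at 20 to 39 molecules (50.8 to 64.1), 68.8% of 445 at 40 to 79 (64.2 to 73.0), 80.1% of 256 at 80 to 159 (74.7 to 84.8) and 90.5% of 42 above that (77.4 to 97.3). The pipeline's correction of errors also bears on the split. Before it, 164 of the 290 Apln-zero cells had an Apln molecule (56.6%), a share below that of the Ptprc-high cells (74.3%), and their Apln level was then 72.3 per 10000 against 59.0 in Ptprc-high cells and 688 in Apln-positive cells.

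**Figure D1:**
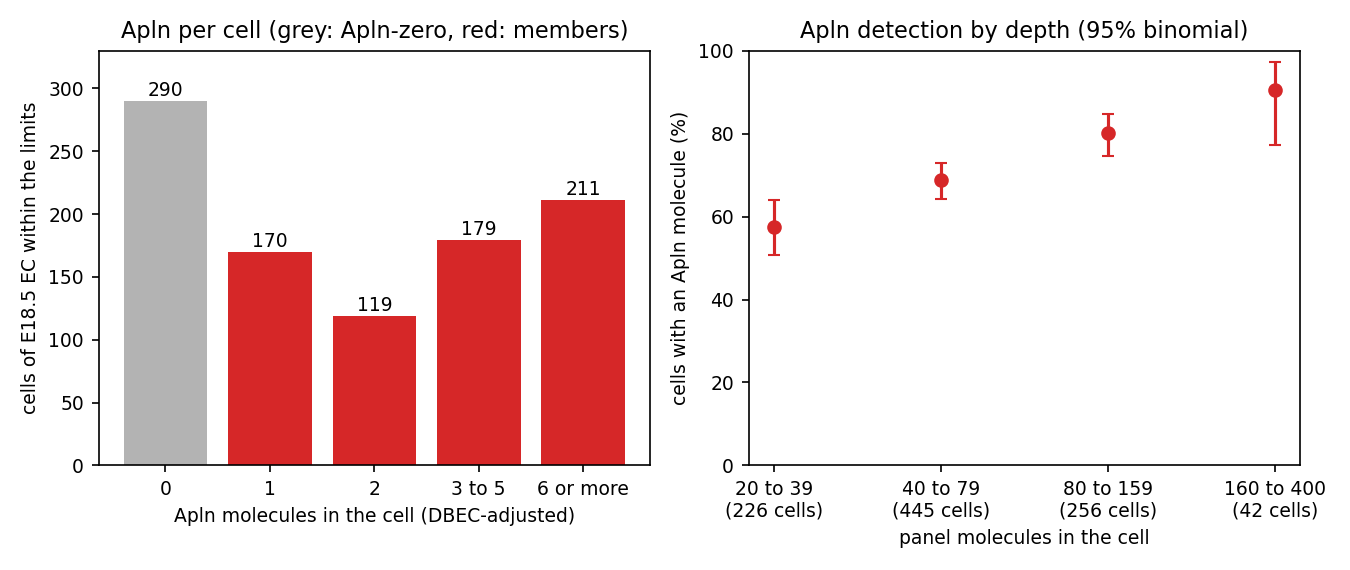
Left, number of cells of E18.5 EC within the limits by the number of Apln molecules (grey, 290 Apln-zero cells, red, the Apln-positive cells). Right, share of cells with an Apln molecule (percent, with 95% binomial intervals) by panel molecules in the cell, which went from 57.5% in the shallowest to 90.5% in the deepest cells.

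The limits did not fall at a gap in the data. With 0, 1 and 2 molecules of Stab1 the rule took 244, 231 and 204 cells, and 150 cells with 3 molecules fell just outside. Their Apln levels were 609, 786 and 785 per 10000 inside and 681 outside, and their Ccnd1 levels were 827, 817 and 838 inside and 894 outside. For Vwf, 32 cells had 2 molecules and 25 cells just outside had 3. For Pecam1 plus Kdr, 8 cells had 5 molecules and 3 cells just outside had 4. The Stab1 level of the Apln-positive cells, 123 per 10000, was held down by the rule itself. Ptprc-high cells, which had no limit on Stab1, stood at 131. Whether they make Stab1 was not tested, so their level cannot tell expression in the ECs from free RNA.

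The cells carried the endothelial label by the values that chose them. Pecam1 (the gene of CD31) was found in all 679 cells, with a lowest count of 4, a median of 20 and a highest of 96, and Kdr (the VEGF receptor) was found in 470. The 5 listed markers that the rule did not use were also present. Igfbp7, a secreted protein of vascular matrix, was found in 641 cells, Cdh13 (T-cadherin) in 530, Nrarp, a target and feedback regulator of Notch signalling, in 420, Stc1 (the hormone stanniocalcin) in 196, and Ccn3, a matricellular protein, in 170. After thinning to 50 molecules, 58.3% of 456 Apln-positive cells (53.7 to 62.9) had at least 3 of these 5 markers, against 0.256% of 781 Ptprc-high cells.

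These 5 markers did not set the Apln-positive cells apart from the Apln-zero cells. The same share was 68.0% in 150 thinned Apln-zero cells (59.9 to 75.4). Summed over the 5 markers the level was 2499 per 10000 (2456 to 2542) with Apln and 2761 (2682 to 2841) without, a ratio of 0.905 (0.875 to 0.936). In Stab1-high cells (the same limits but at least 3 molecules of Stab1, any Apln, 1045 cells) the sum was 1493, and 39.2% of thinned cells (35.8 to 42.7) had 3 or more. The markers were thus shared by Stab1-low ECs with and without Apln. The panel held no further gene that would separate capillary from other endothelium, so the name "capillary" was not checked, and the cells are named here by the rule.

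Against the Apln-zero cells, 45 targets outside the rule had enough molecules. Of these, 2 were higher in the Apln-positive cells by the size rule (4.44%) and 6 were lower (13.3%), and the median ratio over all 45 was 0.914. Apln takes part of the total in the Apln-positive cells only, which lowers every other target there. The other 59 targets outside the rule had under 20 molecules.

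The arterial genes Hey1 and Sema3g had the lowest ratios of the lower targets. Hey1, a transcription factor downstream of Notch (chromosome 3, 8663359 to 8667256, minus strand, 5 exons), had 89 molecules in 56 of 679 Apln-positive cells and 85 molecules in 41 of 290 Apln-zero cells. Its level was 17.1 per 10000 (13.7 to 21.0) against 50.7 (40.5 to 62.7), a ratio of 0.337 (0.247 to 0.459). Sema3g, a secreted semaphorin (chromosome 14, 31217860 to 31230352, plus strand, 16 exons), stood at 24.7 (20.6 to 29.4) against 50.7 (40.5 to 62.7), a ratio of 0.488 (0.368 to 0.649). Most cells of both groups had neither. Hey1 and Sema3g were found together in 13 Apln-positive cells and in 15 Apln-zero cells, which is 23.2% and 36.6% of the cells with Hey1. After thinning, Sema3g was found in 9.43% of Apln-positive cells (6.91 to 12.5) and 18.0% of Apln-zero cells (12.2 to 25.1), and Hey1 in 7.68% (5.40 to 10.5) and 10.7% (6.22 to 16.7), so that for Hey1 the intervals of the shares overlapped.

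Of the 5 arterial genes of the list, Gja4 was barred by the rule, 2 of the 4 compared were lower by the size rule and none was higher, with a median ratio of 0.614 beside 0.914 over all targets. Fbln5 (fibulin 5, an elastic fibre protein), the most abundant of them, had a ratio of 0.741 (0.637 to 0.863), and Mgp, an inhibitor of calcification, 0.929 (0.422 to 2.25) on 26 and 9 molecules. Summed, the 4 genes stood at 157 per 10000 with Apln and 255 without. Cxcl12, which is not in this list but was high in Gja4 cells, went the other way. Its ratio was 1.29 (0.823 to 2.08) on 100 and 25 molecules. Without the cells that had a molecule of Hey1, Sema3g, Mgp or Cxcl12, a choice made after seeing the data, 528 Apln-positive and 202 Apln-zero cells were left, with a Stc1 ratio of 0.590 and a Ccnd1 ratio of 1.42. The 2 Notch genes compared went apart, with Hey1 lower and Nrarp not past the size rule.

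Stc1 went lower by the size rule too, although it was listed among the markers of these cells. Stc1 (chromosome 14, 69029238 to 69041804, plus strand, 4 exons) had a level of 71.9 per 10000 (64.8 to 79.6) against 139 (122 to 158) in Apln-zero cells, a ratio of 0.517 (0.438 to 0.612). It was found in 196 Apln-positive cells with up to 12 molecules a cell, and in 100 Apln-zero cells with up to 16. Cdh13 had a ratio of 0.792 (0.729 to 0.861), Ccn3 0.780 (0.629 to 0.971) and Igfbp7 0.940 (0.903 to 0.978). Nrarp was the only marker of the 5 with more in the Apln-positive cells, at 179 per 10000 (168 to 191) against 142 (124 to 161), a ratio of 1.26 (1.09 to 1.46) that stayed under the size rule.

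Other lower targets had fewer molecules. Fbn1 (fibrillin 1), with 33 and 16 molecules, had a ratio of 0.663 (0.355 to 1.29), and Acp5, an acid phosphatase of osteoclasts, with 15 and 9 molecules, 0.536 (0.22 to 1.39). Both of these intervals include a ratio of 1.

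Ccnd1 was the most abundant target in which the Apln-positive cells stood higher. Ccnd1 encodes cyclin D1, which drives entry into the cell cycle and is a known target of Wnt signalling (chromosome 7, 144929931 to 144939869, minus strand, 5 exons). It had 4313 molecules in 632 of 679 Apln-positive cells and 928 in 238 of 290 Apln-zero cells. The level was 827 per 10000 (802 to 852) against 554 (518 to 590), and the ratio of 1.49 (1.39 to 1.61) fell just short of the size rule. With the 7 rule targets left out of the total, the ratio was 1.56 and passed it. Per cell the median was 5 Ccnd1 molecules, with quartiles of 2 and 9 and a highest value of 45, and 2 in Apln-zero cells, with quartiles of 1 and 5 and a highest value of 20. The distributions overlapped widely. After thinning, 90.8% of Apln-positive cells (87.8 to 93.3) and 80.7% of Apln-zero cells (73.4 to 86.7) had a molecule, against 27.3% of Ptprc-high cells.

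The 2 targets past the size rule on the higher side were less abundant. Tagln (transgelin, a smooth muscle protein) had 53 molecules in 17 Apln-positive cells and 2 molecules in 2 Apln-zero cells, a ratio of 8.52 with a wide interval (2.24 to 72.2). It was concentrated, since 5 cells held 32 of the 53 molecules. Cells with 2 or more molecules of Tagln or of Rgs5, a pericyte gene, numbered 17, and they held 88.7% of the Tagln and 86.4% of the Rgs5 molecules. These 17 cells had a median depth of 114 molecules, a median of 33 Pecam1 molecules and a median of 3 Apln molecules. The part of doublets in these cells was not tested. Tagln and Rgs5 were found together in 1 Apln-positive cell. Fzd7, a Wnt receptor, had 26 molecules in 24 cells against 5 in 5 cells, a ratio of 1.67 (0.632 to 5.57) that includes 1.

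The Apln-zero cells were also split by Apln before the correction, after seeing the data. The 164 with an RSEC-adjusted Apln molecule had a median depth of 52 molecules and the 126 without one had 45.5. Their Ccnd1 levels were 577 and 519 per 10000 and their Hey1 levels 48.2 and 54.4, so for both targets each class lay on the same side of the Apln-positive cells. Stc1 stood at 167 (142 to 194) and 98.5 (76.4 to 125). Between these 2 classes its ratio was 1.69 (1.27 to 2.28), past the size rule. Both levels were above the 71.9 (64.8 to 79.6) of the Apln-positive cells. For the class without RSEC-adjusted Apln, though, the interval overlapped that of the Apln-positive cells. The lower Stc1 with Apln thus lay mostly against cells whose Apln the correction had removed.

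**Figure D2:**
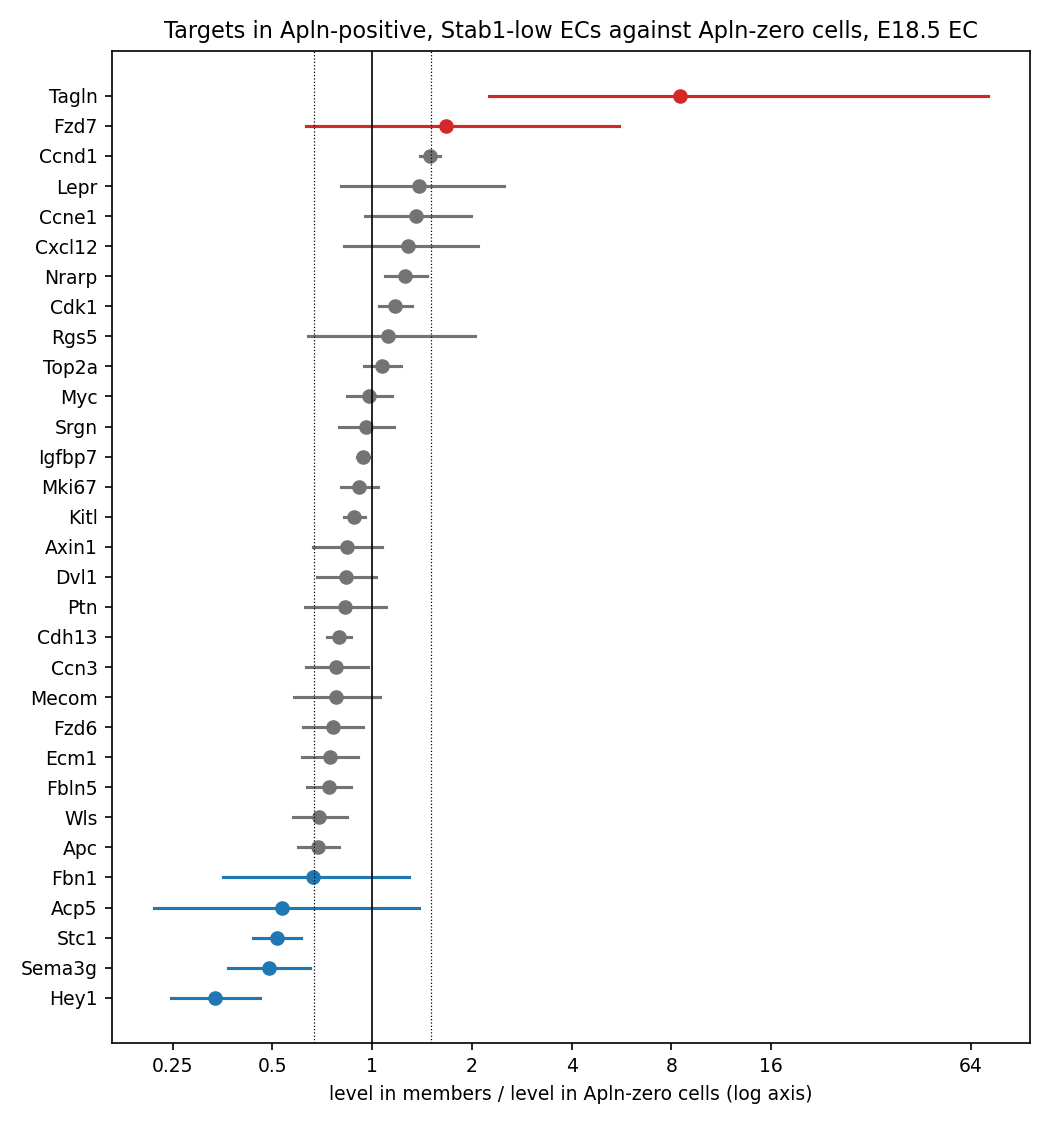
Ratio of the level in Apln-positive cells to that in Apln-zero cells of E18.5 EC for targets named in the text (log axis, lines give the 95% interval of counting error, dotted lines mark 1.5-fold). Tagln and Fzd7 (red) were past the size rule on the higher side and Hey1, Sema3g, Stc1, Acp5 and Fbn1 (blue) on the lower, while Ccnd1 lay at 1.49.

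Within the Apln-positive cells Ccnd1 went with the amount of Apln. To keep Apln itself out of the total, these levels are per 10000 molecules of targets the rule did not use. Ccnd1 stood at 882 (826 to 941) in cells with no Apln, 1140 (1060 to 1225) with 1 molecule, 1202 (1107 to 1304) with 2, 1516 (1426 to 1610) with 3 to 5 and 1482 (1417 to 1550) with 6 or more. The highest 2 classes did not differ beyond their intervals, and neither did the classes with 1 and 2 molecules. Sema3g went the other way, at 80.8 (64.5 to 99.9), 58.3 (41.3 to 80.1), 47.2 (29.9 to 70.8), 33.0 (20.9 to 49.5) and 34.6 (25.2 to 46.3) in the same order. Hey1 stood at 80.8 and 58.3 in cells with 0 and 1 molecule of Apln and at 14.4, 28.7 and 18.4 in the classes above.

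Stc1 had no such gradation. It stood at 222 (194 to 252) in cells without Apln and between 103 and 129 in the 4 classes with Apln, whose intervals overlapped. Nrarp was at 226 without Apln and at 348 (317 to 382) in cells with 6 or more, which lay above the class with 2 molecules, at 220 (180 to 265). Cells with 6 or more Apln molecules were deeper, with a median of 94 molecules against 50 to 61 in the other classes, and in them Apc and Wls were at their lowest, at 145 and 86.1 against 275 and 159 in cells without Apln. Depth moved with these values, and its part in them was not tested.

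**Figure D3:**
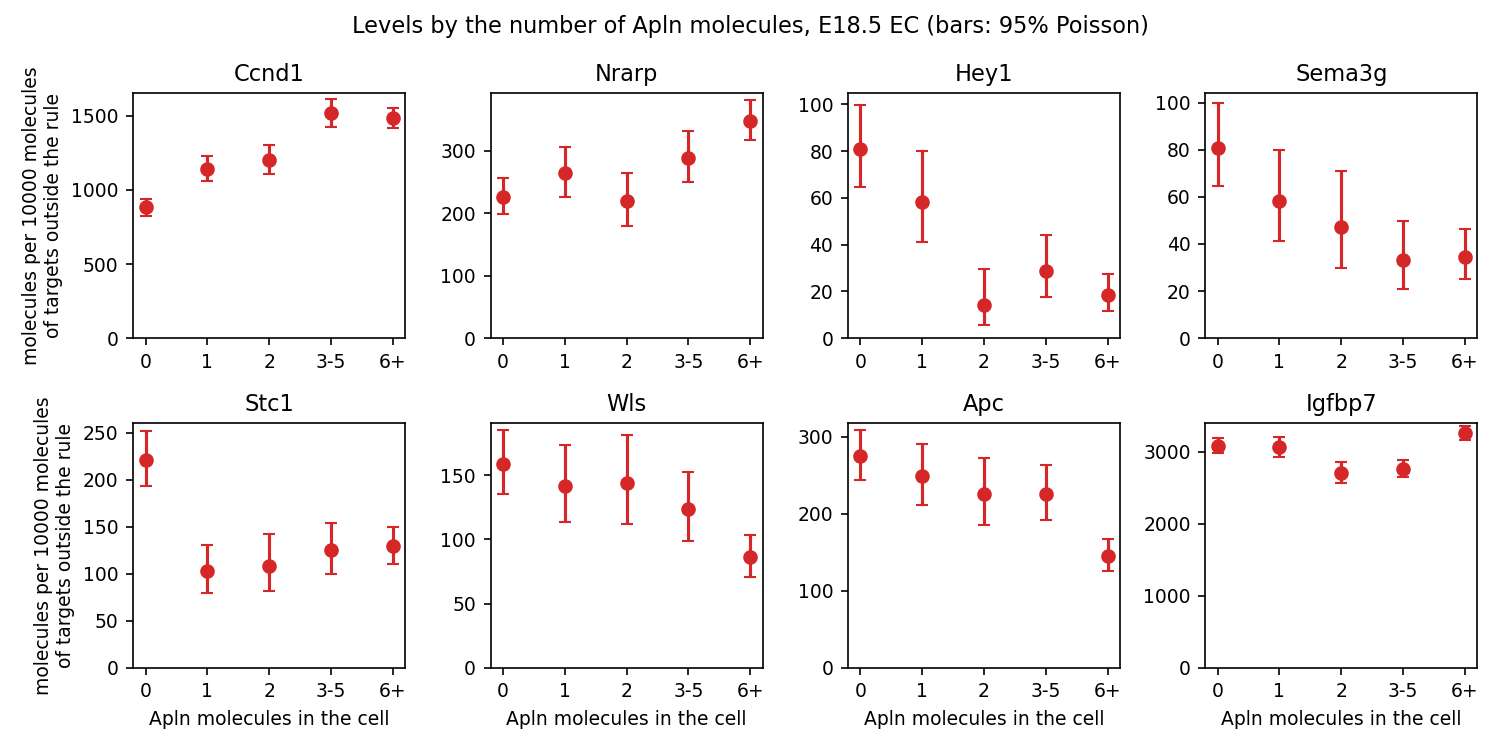
Levels of 8 targets in E18.5 EC by the number of Apln molecules in the cell (molecules per 10000 molecules of targets outside the rule, bars give 95% Poisson intervals). Ccnd1 went from 882 to 1482 per 10000, Hey1 and Sema3g went down from 80.8, and Stc1 stepped from 222 without Apln to 103 with 1 molecule.

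Cell cycle transcripts were frequent. The 4 cell cycle targets of the panel, Cdk1 (the mitotic kinase), Top2a (a topoisomerase of dividing cells), Mki67 (the proliferation antigen Ki-67) and Ccne1 (cyclin E1), had 3524 molecules in 400 Apln-positive cells. None of the 4 passed the size rule in either direction against Apln-zero cells. Their sum stood at 676 per 10000 (654 to 698) against 630 (592 to 669), a ratio of 1.07 (1.0 to 1.15). Cdk1 had a ratio of 1.17 (1.05 to 1.32), Top2a 1.07 (0.942 to 1.22), Mki67 0.914 (0.804 to 1.04) and Ccne1 1.36 (0.954 to 1.98). After thinning, 55.7% of Apln-positive cells (51.0 to 60.3) and 42.0% of Apln-zero cells (34.0 to 50.3) had a molecule of any of them, beside 24.5% of Gja4 cells (ECs with that arterial connexin, described further on) and 65.8% of Ptprc-high cells.

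The Ccnd1 difference was present in cells with and without cell cycle molecules. In 279 Apln-positive and 158 Apln-zero cells with no cell cycle molecule the ratio was 1.45 (1.31 to 1.60), in those with 1 to 4 molecules it was 1.51 (1.30 to 1.75) and in those with 5 or more it was 1.59 (1.37 to 1.86), each per 10000 molecules of the other targets. For Stc1 the ratios in the same classes were 0.598, 0.431 and 0.604. For Hey1 they were 0.286, 0.187 and 0.955, the last on 36 and 9 molecules with an interval of 0.451 to 2.26. For Kitl they were 0.777, 0.974 and 0.983.

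Of the genes that act on blood progenitors, Kitl was the main one in these cells. It stood at 530 per 10000 (511 to 550) in 466 Apln-positive cells and at 601 (565 to 640) in 176 Apln-zero cells, a ratio of 0.882 (0.820 to 0.949). After thinning, 76.3% of Apln-positive cells (72.1 to 80.1) had it against 1.54% of Ptprc-high cells. Kitl was read by 2 amplicons, with 1387 and 1379 molecules in the Apln-positive cells, and their counts were equal in 400 of the 466 cells. If both count the same molecules, the level, the sums and shares that hold Kitl are too high and the intervals too narrow. With 1 amplicon, added after seeing the data, the levels were 275 and 311 per 10000 and the ratio was 0.882 (0.796 to 0.979). Ptn (pleiotrophin, a growth factor) had a ratio of 0.826 (0.626 to 1.10) and Lepr (the leptin receptor of reticular stroma) 1.38 (0.806 to 2.50). Cxcl12, the chemokine that retains blood progenitors, was found in 28 of 679 cells, and 1 cell held 28 of its 100 molecules. None of these 4 genes passed the size rule. Their sum, called the niche factor sum although Lepr is a receptor, had a ratio of 0.895 (0.836 to 0.959).

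Wnt ligands were close to absent. Of the 12 ligands with a molecule in the library, Wnt5b had 7 molecules and Wnt9a had 4 in the Apln-positive cells and the other ten had none. Both are secreted ligands of frizzled receptors. The sum was 2.11 per 10000 (1.05 to 3.77) in 9 cells, against 4.18 (1.68 to 8.60) in Apln-zero cells, and no ligand had the 20 molecules that a comparison needed. Wnt2 had 0 molecules, for which 3 counts over the group set an upper limit of 0.575 per 10000 (counting error only). After thinning, 0.658% of cells had a ligand molecule, below the 1.92% of Ptprc-high cells. Both shares pool all 12 ligands. Whether the Ptprc-high cells make some of them was not tested, so their share cannot tell expression in the ECs from free RNA.

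Frizzled receptors were present at low levels. Fzd6 was the most abundant, at 62.1 per 10000 (55.5 to 69.3) in 227 Apln-positive cells against 81.7 (68.6 to 96.6), a ratio of 0.760 (0.621 to 0.935). Fzd4, the receptor used by endothelium for norrin and Wnt signals, had a ratio of 0.951 (0.597 to 1.56) and Fzd5 0.760 (0.453 to 1.31). Of 4 receptors compared, only Fzd7 passed the size rule, on the higher side. Lgr4, a receptor for R-spondins, had a ratio of 1.03 (0.608 to 1.83). Of the secreted modulators, Dkk3 had 6 molecules and Dkk2 had 3.

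Inside the cell, none of the 7 Wnt pathway components compared passed the size rule in either direction, and their median ratio was 0.835 beside 0.914 for all targets. Apc, a scaffold of the complex that degrades beta-catenin, had a ratio of 0.687 (0.597 to 0.793). Apc was read by 3 amplicons, and the 2 with most molecules gave 0.667 and 0.662 with equal counts in 201 of 219 cells, so its level may be too high and its interval too narrow. With 1 of these 2 left out the ratio was 0.704 (0.581 to 0.855). Wls, which carries Wnt ligands to the cell surface, had a ratio of 0.693 (0.575 to 0.838). After thinning Wls was found in 23.0% of Apln-positive cells and 28.9% of Ptprc-high cells. Whether the Ptprc-high cells make Wls themselves was not tested, so their share cannot tell expression in the ECs from free RNA. Both ratios lay just outside the size rule. Myc, like Ccnd1 a known Wnt target, had a ratio of 0.979 (0.838 to 1.15), so the 2 Wnt targets compared did not move together.

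Genes of other cell types were low in these cells, and the lists are given whole. Of 8 blood genes, 7 had a molecule and Ptprc was at 0 by the rule. Their sum was 118 per 10000 (132 in Apln-zero cells), of which 83.4 was Srgn (serglycin), a gene at 3535 in Ptprc-high cells. Mecom, a transcription factor of blood stem cells and of arterial endothelium, had a ratio of 0.779 (0.581 to 1.05). All 4 mural genes had a molecule, at 24.5 against 17.3 per 10000 in sum. The 7 osteoblast genes, led by Spp1 (osteopontin) with 33 molecules, stood at 12.5 against 10.7, and Bglap had 7 molecules and Bglap2 had 7. Of 5 chondrocyte genes 3 had a molecule, with 1 each of Col2a1, Col10a1 and Sox9. Of the fibroblast-like stroma genes, Aspn had 16 molecules and Postn had 2, and the rest of their sum of 60.2 per 10000 (75.8 in Apln-zero cells) was Ccn3. The reticular stroma sum of 563 against 626 was mostly Kitl. Of 8 extracellular matrix genes compared, only Fbn1 passed the size rule. Cells with any molecule of the stromal, bone, cartilage or mural markers Aspn, Postn, Bglap, Bglap2, Bglap3, Col2a1, Acan, Col10a1, Acta2, Tagln or Rgs5 made up 7.07% of Apln-positive and 5.52% of Apln-zero cells. Without them the Ccnd1 ratio was 1.51, that of Hey1 0.338 and that of Stc1 0.518.

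Stab1-high cells differed from the limits only in Stab1 and in having any amount of Apln. They were about as deep, with a median of 71 molecules, and 74.0% of them had Apln, at 480 per 10000. Of 52 targets compared, 9 were higher in the Apln-positive cells by the size rule (17.3%) and 11 were lower (21.2%). The higher ones were led in abundance by Igfbp7 (1817 against 1028 per 10000, ratio 1.77, 1.72 to 1.82), Kitl (530 against 301, ratio 1.76, 1.67 to 1.86) and Cdh13 (374 against 187, ratio 2.01, 1.88 to 2.14). Rgs5, Tagln, Cxcl12, Mgp, Cdk14 (a cyclin-dependent kinase) and Fbn1 had under 200 molecules over both groups. The listed markers Nrarp (1.07) and Stc1 (1.12), and also Ccnd1 (1.07) and Hey1 (1.09), were under the size rule. For Ccn3 1 Stab1-high cell held 198 of 415 molecules. Its ratio was 1.2 with that cell and 2.29 (1.92 to 2.74), past the size rule, without it.

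Among the lower targets, Myc stood at 124 against 261 (0.476, 0.436 to 0.520), Ptn at 35.5 against 75.5 (0.470, 0.397 to 0.553) and Wls at 69.0 against 142 (0.486, 0.431 to 0.547). Of the Wnt ligands, Wnt2 had 0 molecules against 53 in 23 Stab1-high cells. That makes its level at least 10.5-fold lower, set against 3 counts in the Apln-positive cells and leaving aside the counting error of the 53. Of these molecules, 45 were in 18 of the 272 Stab1-high cells without Apln, at 23.7 per 10000. The 773 Stab1-high cells with Apln held 8, at 1.16 per 10000, and the Stab1-low Apln-zero cells held 0. The gap is thus mostly one to Stab1-high cells without Apln. Wnt5b had a ratio of 0.319 (0.120 to 0.726). The frizzled receptor Fzd5 (0.414, 0.300 to 0.563), the R-spondin receptor Lgr4 (0.560, 0.412 to 0.751), Ccne1 (0.573) and Mmp13 (a collagenase, 0.211 on 4 and 32 molecules) were lower too. The cell cycle sum was 676 against 906 per 10000, a ratio of 0.746 (0.717 to 0.776), though only Ccne1 of its 4 targets passed the size rule.

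Gja4 cells (the same limits on Pecam1, Kdr, Ptprc and Stab1, with at least 1 molecule of Gja4, 312 cells) are ECs with an arterial connexin. They were deeper, with a median of 103 molecules, and 35.3% of them had Apln, at 159 per 10000. Of 52 targets, 17 were higher in the Apln-positive cells (32.7%) and 17 lower (32.7%), and the median ratio was 1.28. All 4 arterial genes compared were lower: Mgp (0.0136), Hey1 (0.0582), Sema3g (0.0731) and Fbln5 (0.318). Cxcl12 stood at 19.2 against 488 per 10000 and Mecom at 30.7 against 217. All 4 cell cycle targets were higher, with Cdk1 at 272 against 68.9, and Ccnd1 stood at 827 against 180 (4.60, 4.24 to 4.98). Of the 5 listed markers, Nrarp (1.59) and Ccn3 (1.82) were higher by the size rule, Stc1 (0.652, 0.566 to 0.751) was lower, and Cdh13 (1.38) and Igfbp7 (1.35) were neither. Hey1 in the Apln-zero cells, at 50.7 per 10000, thus lay between the Apln-positive cells and the Gja4 cells, at 293.

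**Figure D4:**
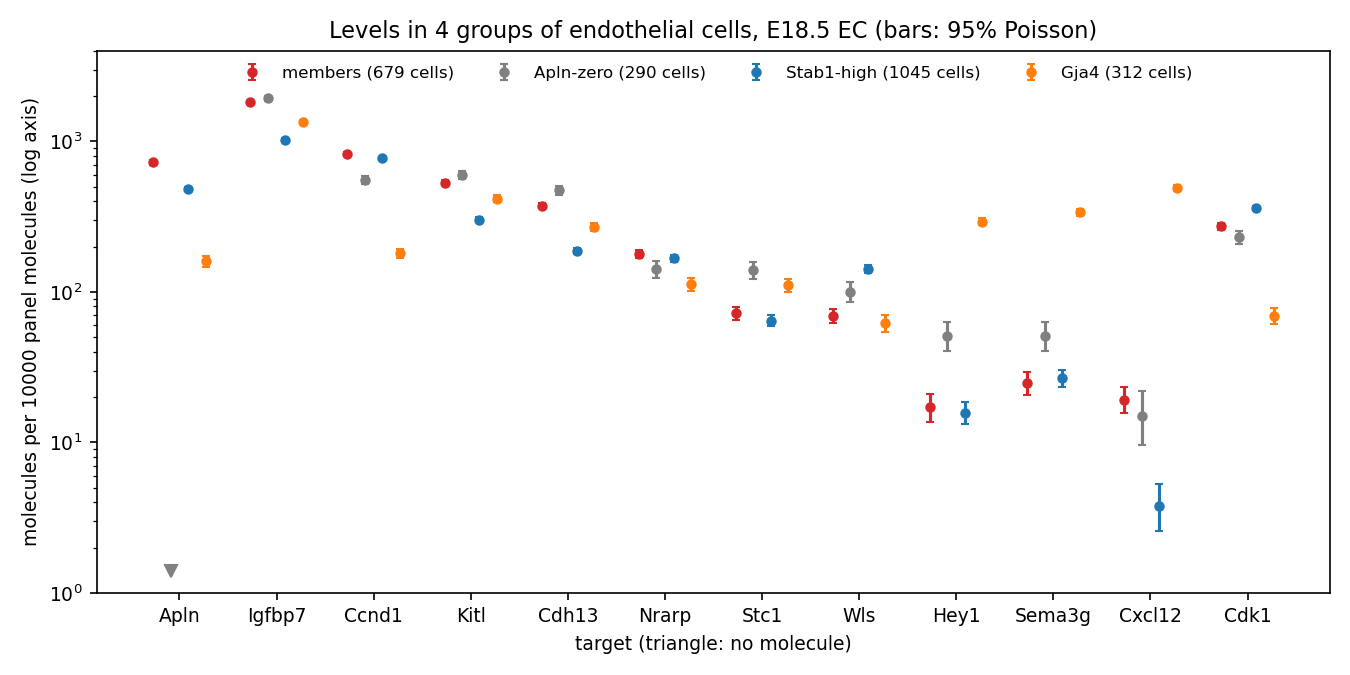
Levels of 12 targets in 4 groups of cells of E18.5 EC (molecules per 10000 panel molecules, log axis, bars give 95% Poisson intervals, the triangle marks no molecule): 679 Apln-positive cells (members), 290 Apln-zero, 1045 Stab1-high and 312 Gja4 cells. The Apln-positive cells lay with Apln-zero cells in Igfbp7, Kitl and Cdh13 and with Stab1-high cells in Ccnd1, Hey1, Sema3g and Stc1.

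The contrast by Apln was then made inside the 2 neighbouring groups, which the choice of the Apln-positive cells did not use. Among Stab1-high cells, 773 with Apln were set against 272 without, at median depths of 76 and 59.5. Ccnd1 had a ratio of 1.53 (1.44 to 1.64) and Nrarp 1.49 (1.29 to 1.72) there. Sema3g was lower (0.661, 0.496 to 0.889), while Hey1 (0.989, 0.655 to 1.54) and Stc1 (1.08, 0.874 to 1.33) were not. Among Gja4 cells, 110 with Apln were set against 202 without, at median depths of 125.5 and 95. Ccnd1 had a ratio of 2.24 (1.92 to 2.62), the cell cycle sum 3.62 (3.07 to 4.29), Sema3g 0.706 (0.628 to 0.792) and Stc1 0.659 (0.534 to 0.810). Ccnd1 was thus above 1 and Sema3g below 1 with Apln in all 3 groups of ECs, while Stc1 was below 1 in the Stab1-low and Gja4 cells. Whether the ratios differed between the groups was not tested.

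The same rule was applied to the other libraries. In E18.5 BM cells it took 196 cells, 77.5% of 253 within the limits (71.8 to 82.5), a share whose interval overlaps the 70.1% of E18.5 EC (67.1 to 72.9). In Adult BM cells it took 38 of 246 (15.4%, 11.2 to 20.6). Stage, sorting, pool and depth cannot be told apart between these libraries. The median depth of cells with and without Apln was 82 and 53 molecules in E18.5 BM cells and 81 and 73 in Adult BM cells. Of the 679 cells, 11 had a barcode that was also used in E18.5 BM cells and 8 one used in Adult BM cells, out of 58 and 38 barcodes shared by the whole libraries. The Apln-zero cells of E18.5 BM cells numbered 57, of which 8 had Lef1, a lymphoid and Wnt pathway factor, 5 had Postn and 24 had Srgn, and the part of such cells in the ratios was not tested beyond the stromal markers. In Adult BM cells, 94.7% of cells with Apln and 91.3% of those without had a stromal or mural marker molecule, and leaving such cells out left 2 and 18 cells, which is too few for values.

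Of 33 targets with 20 molecules in every library, 3 had a ratio above 1 in all 3 and 7 had one below 1. Ccnd1 had ratios of 1.49, 2.01 (1.68 to 2.41) and 2.84 (2.25 to 3.58) for the sorted ECs, the fetal marrow cells and the adult marrow cells in turn, and Nrarp had 1.26, 1.27 (0.898 to 1.85) and 2.11 (1.46 to 2.99). Lepr was the third, on few molecules. Sema3g was the only target past the size rule in the same direction in all 3, at 0.488, 0.314 (0.159 to 0.640) and 0.282 (0.168 to 0.447). Fbln5 was also below 1 in each, at 0.741, 0.561 (0.409 to 0.781) and 0.457 (0.231 to 0.825). Hey1 was lower in Adult BM cells (0.0568, 0.00142 to 0.324, on 1 and 92 molecules) but not in E18.5 BM cells (1.30, 0.687 to 2.71, on 76 and 11).

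Cdh13 went with Apln in the other libraries, against its direction in E18.5 EC. Its ratio was 1.56 (1.27 to 1.93) in E18.5 BM cells and 1.67 (1.33 to 2.09) in Adult BM cells, beside 0.792. With the rule reapplied to RSEC-adjusted or raw molecules the E18.5 EC ratio was 1.04 and 1.14, on the side of the other libraries. It stayed below 1 under the other 11 alternatives, among them the same counts in the cells chosen with DBEC. Kitl had ratios of 0.882, 1.5 (1.23 to 1.84) and 0.591 (0.476 to 0.727). The cell cycle sum had 1.07, 0.764 (0.679 to 0.862) and 3.21 (2.32 to 4.43), the last on 64 and 104 molecules. Without cells that had a stromal or mural marker, the Cdh13 and Kitl ratios of E18.5 BM cells were 1.42 (1.15 to 1.78) and 1.38 (1.12 to 1.71).

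**Figure D5:**
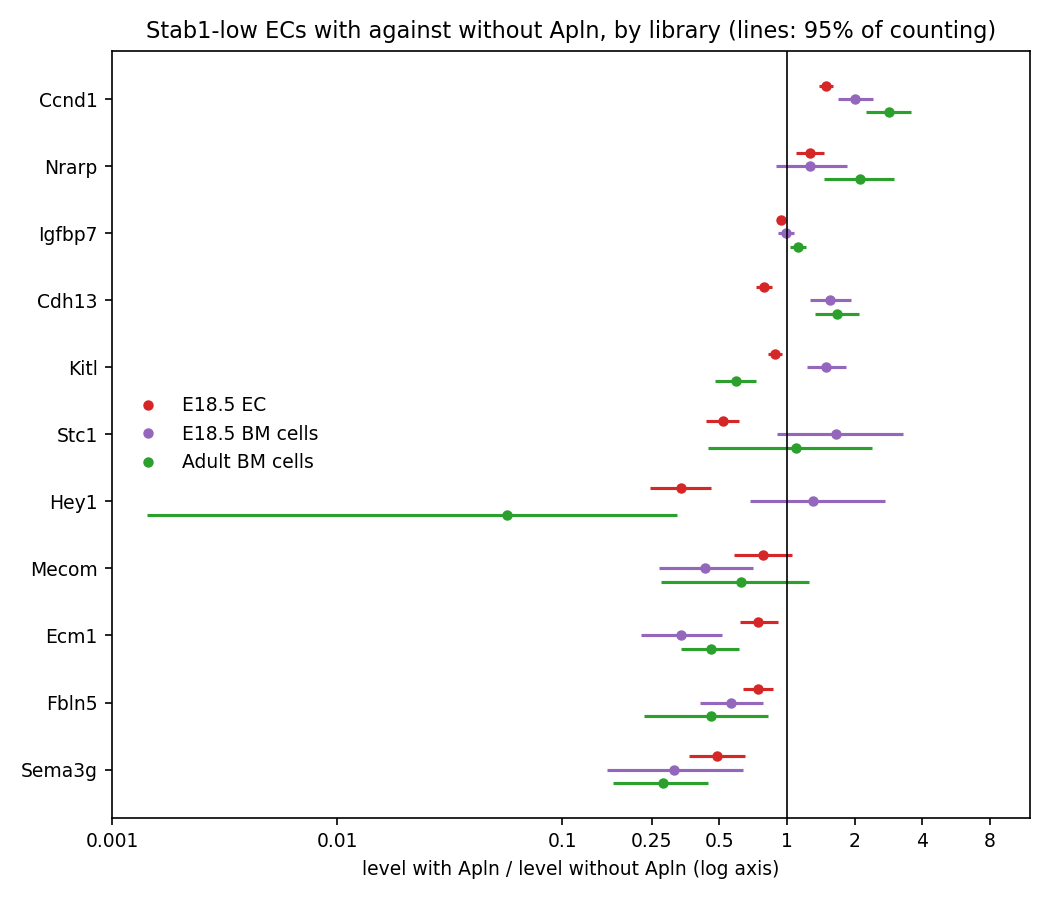
Ratio of the level in Stab1-low ECs with Apln to that in Stab1-low ECs without it, for targets named in the text in each library (log axis, lines give the 95% interval of counting error). Ccnd1 lay above 1 at 1.49, 2.01 and 2.84 and Sema3g below 1 at 0.488, 0.314 and 0.282, while Cdh13 lay below 1 in E18.5 EC only.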

How the data were processed

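Targeted single-cell RNA libraries were made by the authors with a microwell system (BD Rhapsody) and a custom panel. Per the file headers, the BD Targeted Rhapsody Analysis Pipeline 1.8 counted molecules, while the methods name an earlier release. The deposited counts are whole numbers of molecules for each cell and amplicon, not normalized. They come raw, with base errors in the molecular identifiers merged by the recursive correction (RSEC), and with low-depth artifact molecules then removed by the distribution-based one (DBEC). Reads were aligned to amplicons of mouse transcripts (mm10 per the labels). DBEC-adjusted molecules were used (21.2% of raw ones in E18.5 EC), summed over the amplicons of a target. The library held 432987 molecules of 111 targets in 4043 barcodes, at a median of 83 a cell, and the others held 12884 and 7948 barcodes at medians of 96 and 242. All barcodes had at least 20 molecules, so none was left out.

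The members, the 20 gene lists and the comparisons were chosen with earlier results of these data known. Named are the listed markers, the 7 rule targets, every target at 1.5-fold or more with at least 20 molecules against Apln-zero cells, and the 2 of each list with most molecules. Other targets, and the splits by cell cycle and by shared cells, were chosen after their values were seen. Cells were thinned to 50 molecules with random seed 1 for shares, which left out 223 Apln-positive and 140 Apln-zero cells. No doublet caller was run, and the deepest 5% of cells were left out as an alternative. The code was tested on simulated counts. All 111 transcripts named by the amplicons were found with the same version in GENCODE M21 (GRCm38), which gave the positions. Results of 2 targets that the counts include are not reported here. Python 3.11.15, numpy 2.4.6, pandas 2.3.3, scipy 1.17.1 and matplotlib 3.10.9 were used.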

Additional observations from a re-analysis of the deposited data

Results flagged for a closer look

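Some targets had ratios of opposite direction, with against without Apln, in E18.5 EC and in another library, either past 1.5-fold in both or with counting intervals on opposite sides of 1. The difference between libraries was not tested, since each is 1 sample. Cdh13 had 0.792 (0.729 to 0.861) in E18.5 EC against 1.56 (1.27 to 1.93) in E18.5 BM cells and 1.67 (1.33 to 2.09) in Adult BM cells. Kitl had 0.882 (0.820 to 0.949) against 1.5 (1.23 to 1.84) in E18.5 BM cells. The rule reapplied to RSEC-adjusted and to raw molecules left 40 and 30 Apln-zero cells. The E18.5 EC ratios were then 1.04 and 1.14 for Cdh13 and 1.08 and 1.02 for Kitl. Both targets stayed below 1 under the other 11 alternatives, RSEC-adjusted and raw molecules in the cells chosen with DBEC among them. The opposite directions thus turned only where the cells were chosen anew with other counts, and the part of the changed cells was not tested. Igfbp7 had 0.940 (0.903 to 0.978) against 1.12 (1.03 to 1.21) in Adult BM cells. Over the 13 alternatives its E18.5 EC ratio went from 0.861 to 0.998. Apln takes part of the total in the Apln-positive cells only, which lowers the ratios of all other targets. A total without Apln alone was not used, so the part of this in the Igfbp7 and Kitl directions was not tested. Stc1 had 0.517 (0.438 to 0.612) against 1.65 (0.904 to 3.29) in E18.5 BM cells, the latter on 105 and 12 molecules.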

How the results depend on the processing

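No paired analysis was possible because each group is 1 library with no replicate numbers. The rule reapplied to RSEC-adjusted molecules gave 266 Apln-positive and 40 Apln-zero cells, and to raw molecules 165 and 30, against 679 and 290. With RSEC, 5 targets were higher, the frizzled sum had a ratio of 1.21, the cell cycle sum 0.705 and the niche factor sum 1.07, and Fbn1 (1.02) reversed. With raw molecules 6 targets were higher and 15 lower, and the capillary marker, frizzled and cell cycle sums had ratios of 1.01, 1.33 and 0.645. Raw molecules in the cells chosen with DBEC, an alternative chosen after seeing the data, gave 4 higher and 10 lower. A least depth of 50 molecules gave 4 higher and a capillary marker ratio of 0.863, and thinning gave 1 higher and 0.850. With Stab1 of 0 there were 244 Apln-positive cells, 5 targets were higher, the cell cycle ratio was 1.33 and Acp5 reversed to 1.46. Leaving the rule targets out of the total gave a capillary marker ratio of 0.945, and leaving out cells with arterial markers, chosen after seeing the data, gave a cell cycle ratio of 0.903. The cause of these moves was not tested. The Ccnd1 ratio stayed above 1 under all 13 alternatives (1.25 to 1.60), and Hey1, under the 12 that could be run, and Stc1, under 13, stayed below 1 (0.240 to 0.937 and 0.487 to 0.959). Sema3g stayed below 1 under 12 (0.428 to 0.960). All 3 missed the size rule where the cells were chosen anew with RSEC-adjusted and raw molecules (Hey1 0.672 and 0.937, Sema3g 0.960 and 0.854, Stc1 0.701 and 0.959), and Stc1 also with Stab1 of 0 (0.725). Each passed it under its other 10 alternatives, RSEC-adjusted and raw molecules in the cells chosen with DBEC among them. Each Apln-zero group of 30 or 40 cells limits the corresponding comparison, and a median of 66 molecules a cell limits what a missing target shows in a single cell.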
